A study of Mus musculus with 295 samples.

Results

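Adipose tissue of 94 mice was compared, 47 with high and 47 with low RNA of the enzymes of fatty acid synthesis, out of 295 F2 mice in the series. The 94 came from the 142 mice with low Eif2s3y, a gene of the Y chromosome, chosen as those whose deposited log ratio for this gene lay below -0.6. The highest value kept was -1.2527 and the lowest left out was -0.0311, so no mouse lay near the limit. The members were then chosen by a lipogenic score, formed for each of the 142 mice as the mean of the z values of Fasn and Acaca, each taken from its most variable probe. The mice were ranked by the score and cut into 3 parts: 47 lipogenic-high mice, 47 lipogenic-low mice and 48 between them. The score was formed from the same arrays that were then compared, so every difference given here is an association between transcripts across mice, and no mouse was assigned to a condition.

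All 295 mice were F2 offspring of C57BL/6J and C3H/HeJ parents, both on an ApoE null background, and all ate a high-fat Western diet between week 8 and week 24 of age. ApoE is the lipoprotein ligand whose loss raises plasma cholesterol, and the lipogenic-high and the lipogenic-low mice all lack it, so neither is a wild-type group. Both sexes were used, but the labels tie no mouse to a sex, genotype, weight or fat depot. Each mouse had 1 array, on which its RNA was set against 1 common pool of RNA from all mice. Values are given as log2 ratios of mouse to pool, so 0 is the level of the pool and 1 is a doubling. They describe 1 gene across mice and do not rank genes by abundance.

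Fat cells build fatty acids from citrate that leaves the mitochondrion. ATP citrate lyase cuts it to acetyl-CoA, acetyl-CoA carboxylase makes malonyl-CoA, and fatty acid synthase joins these units into palmitate, which is then lengthened, desaturated and stored as triglyceride. Insulin acting through SREBP1c, and glucose acting through ChREBP, are the known controls of these genes, and fat under a lipid-rich diet is known to lower this pathway and to gather macrophages.

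Fasn, the fatty acid synthase itself, ran from -0.14 through a median of 0.60 to 1.95 in lipogenic-high mice and from -2.94 through -0.55 to 0.12 in lipogenic-low mice. Acaca, acetyl-CoA carboxylase 1, ran from -0.02 through 0.47 to 1.82 in lipogenic-high mice and from -1.14 through -0.52 to 0.28 in lipogenic-low mice. These values made the groups and are given as a description, without a test. The last mouse inside the high part had a score of 0.346 and the first outside it 0.3415. The last inside the low part had -0.4589 and the first outside it -0.4549, so the edges cut through a continuous range. Fasn and Acaca had a Pearson r of 0.62 over the mice with both values, measured on the same arrays. The other 2 Acaca probes did not follow Fasn (r = -0.03 and 0.0049) and had r = 0.17 and 0.23 with the scored probe, but 0.92 with each other. The score therefore rests on Fasn and on 1 of 3 Acaca probes.

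**Figure D1:**
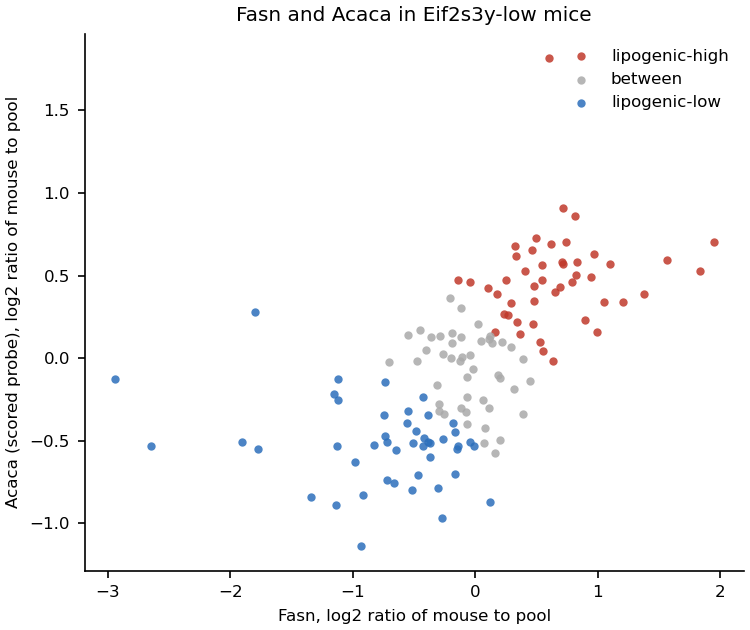
Fasn (horizontal axis) and the scored Acaca probe (vertical axis) as log2 ratios of mouse to pool, 1 point per Eif2s3y-low mouse with both values, coloured by its part of the score. The high part has medians of 0.60 for Fasn and 0.47 for Acaca, the low part -0.55 and -0.52, with no gap between neighbouring parts.

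Outside Fasn and Acaca, 1340 of 11511 genes were higher in lipogenic-high than in lipogenic-low mice (11.6%) and 1138 were lower (9.89%), by limma with Benjamini-Hochberg adjusted p under 0.05. On probes, 4654 of 23009 differed (20.2%), 2483 of them higher (10.8%) and 2171 lower (9.44%). Most differences were small: 54 genes were at least 1.5-fold higher and 194 at least 1.5-fold lower, and 5 and 37 passed 2-fold. With the other 2 Acaca probes replacing the scored one, a setting chosen after the data were seen, 6759 probes were higher and 6784 lower. The macrophage score of each mouse as a covariate, described below, gave 1199 and 750. The mice were also split by mouse number into 3 ranges. Among numbers 2 to 125, with 18 lipogenic-high and 15 lipogenic-low mice, 146 probes were higher and 65 lower. Among numbers 126 to 247, with 14 of each, 777 were higher and 396 lower, and among numbers 248 to 399, with 15 lipogenic-high and 18 lipogenic-low mice, 882 and 1161. The mean mouse number was 173 in lipogenic-high and 191 in lipogenic-low mice (permutation p = 0.418). Lipogenic-high arrays had a mean of 0.790% missing values and lipogenic-low arrays 0.991% (permutation p = 0.0353, 0.0706 adjusted over 4 properties). Their array medians averaged 0.0682 and 0.0563 (permutation p = 0.0191, adjusted 0.0706). With array medians removed, 2097 probes were higher and 2254 lower, so the larger count was then on the lower side. The part of these array properties in the results was not tested beyond that fit.

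All 12 measured genes of fatty acid synthesis other than the scored pair were higher in lipogenic-high mice, with a median difference of 0.59 on the log2 scale, against 0.0021 over all genes. The genes of the pathway are linked in use, and the score contains 2 of their neighbours, so this count is no independent support for the score. The RefSeq promoters (build GRCm38.p6) of the scored gene Fasn and of 3 of the 12, Thrsp, Acly and Slc25a1, are shown as examples. All 12 were higher, so being higher does not single out these 3. All 4 windows shown hold the marked motif, and pathway windows without it are not shown. Each sequence runs 5′ to 3′ on the gene's own strand, 300 bases around the start of transcription, and capitals mark CCAAT or its reverse ATTGG, the letters of the NF-Y box. All 4 genes lie on the minus strand.
Fasn, chr11:120824498-120824797: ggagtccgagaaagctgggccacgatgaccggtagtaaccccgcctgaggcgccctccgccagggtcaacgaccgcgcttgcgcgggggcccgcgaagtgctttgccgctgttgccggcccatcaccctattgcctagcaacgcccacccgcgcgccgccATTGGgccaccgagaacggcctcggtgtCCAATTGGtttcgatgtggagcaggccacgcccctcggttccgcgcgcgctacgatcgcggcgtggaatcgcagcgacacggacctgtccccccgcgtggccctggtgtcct
Thrsp, chr7:97417501-97417800: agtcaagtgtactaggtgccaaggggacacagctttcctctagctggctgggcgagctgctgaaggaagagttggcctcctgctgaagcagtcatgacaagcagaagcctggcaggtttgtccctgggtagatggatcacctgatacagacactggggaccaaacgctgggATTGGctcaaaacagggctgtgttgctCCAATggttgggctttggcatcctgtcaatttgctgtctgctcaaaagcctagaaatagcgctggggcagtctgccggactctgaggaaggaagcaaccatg
Acly, chr11:100527951-100528250: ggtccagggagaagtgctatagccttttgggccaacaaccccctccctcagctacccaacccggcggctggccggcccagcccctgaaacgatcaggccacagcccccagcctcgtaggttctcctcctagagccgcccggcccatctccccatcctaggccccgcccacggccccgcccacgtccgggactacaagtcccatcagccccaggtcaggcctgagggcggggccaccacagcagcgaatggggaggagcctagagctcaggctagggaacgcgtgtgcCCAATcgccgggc
Slc25a1, chr16:17928170-17928469: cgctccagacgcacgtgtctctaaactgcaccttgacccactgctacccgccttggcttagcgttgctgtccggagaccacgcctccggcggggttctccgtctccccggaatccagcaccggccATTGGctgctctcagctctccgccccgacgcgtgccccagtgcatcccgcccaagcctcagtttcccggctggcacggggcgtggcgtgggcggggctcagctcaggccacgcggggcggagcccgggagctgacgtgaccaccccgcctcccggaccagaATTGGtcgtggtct

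The Fasn window holds CCAAT 3 times on either strand, with an overlapping pair near the start, Thrsp and Slc25a1 hold it 2 times each and Acly 1 time. Of the 10 genes of fatty acid synthesis with a promoter entry, Fasn included, 7 hold CCAAT, against 37.4% of all 32851 promoters of this length. GGGCGG, the core letters of an Sp1 box, stands in 5 of the 10 and in 35.7% of all promoters, CACGTG, an E-box, in 1 of the 10 and 7.15%, and TCACNCCAC, letters of a sterol element, in 0 of the 10 and 1.24%. All motifs were searched on both strands. These matches describe letters in a window and show no binding.

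Thrsp, the Spot 14 protein that accompanies lipogenesis, had the largest difference of the pathway. It ran from -0.33 through 0.94 to 2.21 in lipogenic-high mice and from -1.80 through -0.40 to 0.57 in lipogenic-low mice. All 47 lipogenic-high mice lay above the median of the lipogenic-low mice, and 32 lay above their highest value. The difference was 1.35 ± 0.13 (SE; 2.54-fold; limma adjusted p = 5.91e-14).

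Acly, which makes cytosolic acetyl-CoA, ran from -1.08 through 0.30 to 0.96 in lipogenic-high mice and from -1.63 through -0.48 to 0.32 in lipogenic-low mice, a difference of 0.85 ± 0.09 (limma adjusted p = 1.54e-12). Acss2, which makes the same product from acetate, was more scattered, with -1.88 through 0.53 to 2.04 in lipogenic-high mice and -2.51 through -0.33 to 0.60 in lipogenic-low mice (0.95 ± 0.15, limma adjusted p = 3.82e-07). The groups overlapped for both: 46 of the lipogenic-high mice lay above the low median for Acly and 41 for Acss2. Slc25a1, the carrier that exports citrate, differed by 0.49 ± 0.07 (limma adjusted p = 2.03e-08) and Me1, malic enzyme, a source of NADPH, by 0.68 ± 0.08 (limma adjusted p = 1.34e-10).

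Elovl6, which lengthens palmitate, ran from -1.14 through 0.39 to 2.50 in lipogenic-high mice and from -2.99 through -0.56 to 0.75 in lipogenic-low mice, a difference of 1.05 ± 0.14 (limma adjusted p = 1.19e-08). Scd1, the main desaturase, was separated more cleanly, with 0.09 through 0.59 to 1.27 in lipogenic-high mice against -2.69 through -0.08 to 0.48 in lipogenic-low mice (0.76 ± 0.08, limma adjusted p = 5.13e-12). All 47 lipogenic-high mice lay above the low median for Scd1, and 29 above the highest lipogenic-low mouse. Smaller differences were those of Acacb (0.31), the mitochondrial-surface carboxylase, Mcat (0.28), of mitochondrial fatty acid synthesis, Elovl3 (0.29) and the desaturases Fads1 (0.21) and Fads2 (0.23). The other tested Mcat probe did not pass the test. Mouse 112, which had the lowest score (-2.28), also had the lowest value of all lipogenic-low mice for Scd1, Me1, Elovl6, Acly, Acss2 and Slc25a1. Without it 2399 probes were higher and 2120 lower, a setting chosen after the data were seen.

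**Figure D2:**
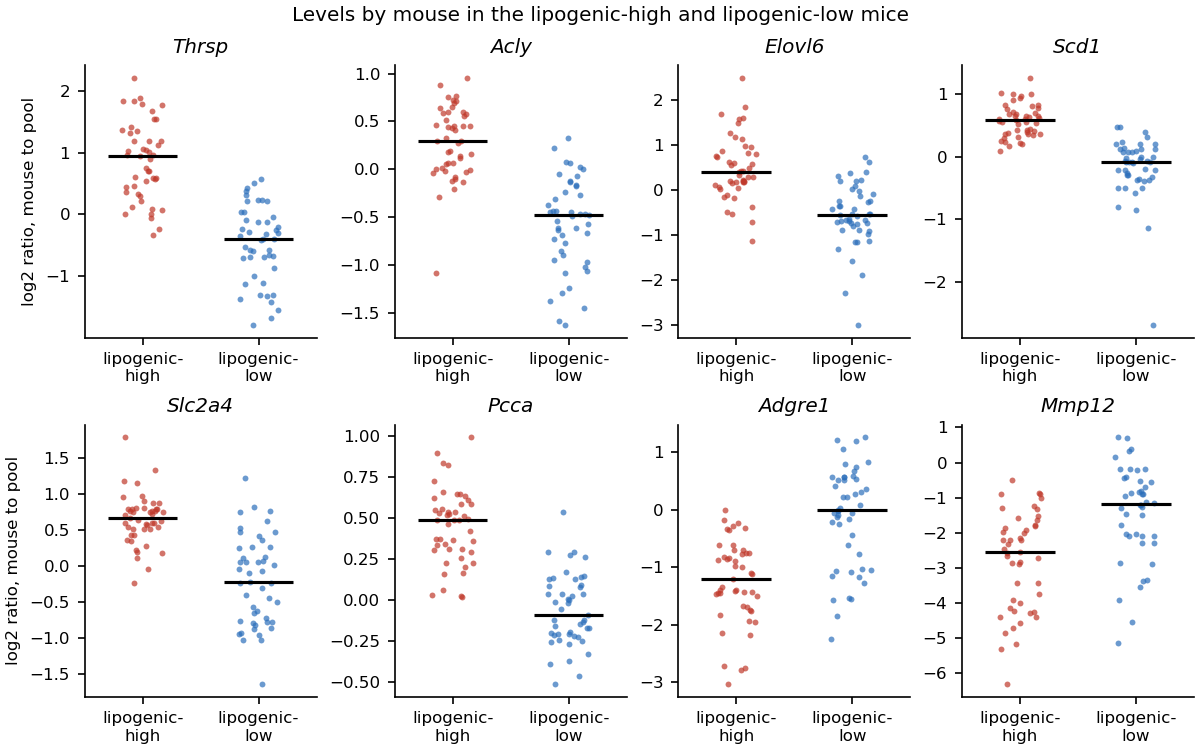
Log2 ratios of mouse to pool for 8 genes, 1 point per mouse, with lipogenic-high mice left of lipogenic-low mice in each panel and lines at the medians. For Thrsp 32 lipogenic-high mice lie above every lipogenic-low mouse, whereas Adgre1 and Mmp12 have medians of -1.20 and -2.56 in lipogenic-high and -0.01 and -1.17 in lipogenic-low mice.

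Of 15 measured regulators of lipogenesis, 7 were higher and 1 lower. Mlxipl, which encodes ChREBP, ran from -0.20 through 0.43 to 1.48 in lipogenic-high mice and from -0.76 through -0.04 to 0.93 in lipogenic-low mice, a difference of 0.47 ± 0.07 (limma adjusted p = 3.20e-07). Srebf1, which encodes SREBP1, ran from -0.23 through 0.25 to 0.96 in lipogenic-high mice and from -1.37 through -0.31 to 0.74 in lipogenic-low mice (0.51 ± 0.09, limma adjusted p = 2.34e-06), with no value on 8.45% of the 142 arrays. For Srebf1, values were present for 46 lipogenic-high and 41 lipogenic-low mice. The ranges of both genes overlapped. Smaller increases were those of Foxo1 (0.30), Irs2 (0.28), Irs1 (0.24), Insig2 (0.24) and Nr1h3 (0.18), which encodes LXR alpha. Usf1, an E-box factor, was lower (-0.28), and Srebf2 (-0.17), Insr (0.05) and Akt2 (0.08) did not pass the test.

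Of 20 measured genes of glucose entry, glycolysis and pyruvate use, 11 were higher and 1 lower. Slc2a4, the insulin-responsive glucose transporter GLUT4, ran from -0.23 through 0.67 to 1.79 in lipogenic-high mice and from -1.64 through -0.22 to 1.23 in lipogenic-low mice, a difference of 0.85 ± 0.10 (limma adjusted p = 1.86e-10). Slc2a1, the widely expressed GLUT1, went the other way (-0.21 ± 0.06, limma adjusted p = 0.00698). Hexokinase 2 (Hk2) differed by 0.62 and pyruvate carboxylase (Pcx), which feeds citrate, by 0.70. The pyruvate carrier Mpc1 (0.54) and the pyruvate dehydrogenase genes Dld (0.50) and Pdha1 (0.38) were higher too, as were Aldoa, aldolase A (0.43), and Pfkl, a phosphofructokinase (0.23). Citrate synthase, Cs (0.05), Pgk1 (0.07), Pgam1 (-0.0006), Pkm (0.007) and Ldha (-0.02) did not pass the test. Of 4 measured NADPH genes, Tkt (0.44) and Mdh1 (0.35) were higher.

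The fructose transporter Slc2a5 had one of the largest differences. It ran from -3.20 through -1.32 to 1.11 in lipogenic-high mice and from -3.87 through -2.91 to 0.10 in lipogenic-low mice, so the ranges overlapped, and 43 lipogenic-high mice lay above the low median. The difference was 1.52 ± 0.21 (limma adjusted p = 2.01e-08).

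Triglyceride genes moved in the same direction, with 6 of 10 measured genes higher and 0 lower. Agpat2 (0.52), Lpin1 (0.51), Dgat1 (0.52) and Dgat2 (0.57) encode successive acylation and dephosphorylation steps, and Pck1 (0.64) supplies glycerol phosphate. Dgat2 ran from -0.54 through 0.41 to 0.91 in lipogenic-high mice and from -2.30 through -0.08 to 0.52 in lipogenic-low mice (limma adjusted p = 4.20e-08). All 7 measured lipid droplet and lipolysis genes were higher, among them the droplet coat gene Plin1 (0.49 ± 0.07), the lipogenesis-regulated lipase Pnpla3 (0.72 ± 0.10) and seipin, Bscl2 (0.39 ± 0.06). Of 11 adipocyte genes 7 were higher, with Car3 (0.83), Retn, resistin (0.53), and Pparg (0.30) among them. Lep, leptin, ran from -0.97 through 0.02 to 0.95 in lipogenic-high mice and from -1.08 through 0.08 to 0.97 in lipogenic-low mice, a difference of -0.08 ± 0.09 (limma adjusted p = 0.639). Fabp4, Lpl and Cd36 had no value on 74.6%, 76.1% and 76.1% of the arrays and were not tested, and no probe carries the symbol Adipoq.

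Cholesterol synthesis, which shares SREBP control, moved less: 3 of 14 genes were higher (Nsdhl 0.33, Fdft1 0.29, Lss 0.28) and 0 lower, with a median of 0.07. Apoe, disrupted in all mice, differed by 0.06 ± 0.10 (limma adjusted p = 0.753).

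Genes that burn fuel in mitochondria were also higher in lipogenic-high mice. All 8 measured genes of oxidative phosphorylation were higher, by 0.26 to 0.44. Ndufs1 of complex I had the largest difference (0.44), and Ndufa10 (0.43) and Ndufv1 (0.38) belong to the same complex. All 11 measured genes of branched-chain amino acid breakdown were higher, by 0.21 to 0.58. Pcca, a subunit of propionyl-CoA carboxylase, ran from 0.02 through 0.49 to 0.996 in lipogenic-high mice and from -0.51 through -0.09 to 0.54 in lipogenic-low mice, and all 47 lipogenic-high mice lay above the low median (0.51 ± 0.05, limma adjusted p = 9.30e-15). Of 14 genes of fatty acid oxidation, 11 were higher, among them Cpt2 (0.52), Ehhadh (0.56) and Acadvl (0.40), and Cpt1a, the liver-type gatekeeper of this pathway, was lower (-0.19 ± 0.06, limma adjusted p = 0.0144). Of 14 thermogenic genes 9 were higher, including Cox8b (0.70), Cox7a1 (0.63), Cidea (0.86) and Ucp1, the uncoupling protein of brown fat (0.75 ± 0.25, limma adjusted p = 0.0186).

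By the size of the moderated t rather than by pathway, the clearest increase was that of Slc25a35, a mitochondrial carrier of unsettled substrate. It ran from 0.11 through 0.49 to 0.98 in lipogenic-high mice and from -0.88 through -0.11 to 0.50 in lipogenic-low mice (0.61 ± 0.05, limma adjusted p = 1.83e-16). Pcca, TLCD1 and Thrsp came next, followed by Gfm1, of mitochondrial translation, Cpt2, Pygl, of glycogen breakdown, Gstz1, of tyrosine breakdown, Idh3b, of the citric acid cycle, Acly, Tmlhe, of carnitine synthesis, and Klhl40. The largest difference of all was in Cyp2e1, a cytochrome P450 best known from liver, with -2.04 through 1.30 to 2.56 in lipogenic-high mice and -3.39 through -0.78 to 2.53 in lipogenic-low mice (1.71 ± 0.26, limma adjusted p = 1.14e-07). Of the other 9 measured liver genes 0 passed the limma test, and 2 had an unadjusted p under 0.05.

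Macrophage genes were lower in lipogenic-high mice. Of 25 measured, 22 were lower and 0 higher, with a median difference of -0.88. Adgre1, the F4/80 antigen, ran from -3.04 through -1.20 to 0.00 in lipogenic-high mice and from -2.24 through -0.01 to 1.27 in lipogenic-low mice (-1.13 ± 0.16, limma adjusted p = 6.21e-08), and 46 lipogenic-high mice lay below the low median. Mmp12, macrophage elastase, ran from -6.32 through -2.56 to -0.50 in lipogenic-high mice and from -5.15 through -1.17 to 0.73 in lipogenic-low mice (-1.38 ± 0.29, limma adjusted p = 9.26e-05). Cd68 (-0.93), the lipid-associated marker Gpnmb (-1.38), the integrin Itgax (-1.21) and the chemokines Ccl2 (-0.93) and Ccl3 (-1.08) were lower too, whereas Ctss (-0.0007), Ccr2 (-0.02) and Ncf1 (-0.10) did not pass the test. Mmp12 and Gpnmb each had values for all 47 lipogenic-high mice, but for 44 and 40 of the lipogenic-low mice. In whole tissue, fewer cells of a type and less RNA per cell cannot be told apart.

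The largest decreases by size were Itgad, an integrin chain of tissue macrophages (-1.70 ± 0.28), and Gdf3, a TGF-beta family ligand (-1.70 ± 0.27), ahead of Mmp12, Gpnmb, Adam8 (-1.37) and Rgs1 (-1.36). Gdf3 ran from -3.56 through -1.33 to 1.39 in lipogenic-high mice and from -3.07 through 0.78 to 2.67 in lipogenic-low mice, so single mice overlapped widely, and 42 lipogenic-high mice lay below the low median. By moderated t, the clearest decreases were Bin3, a membrane-bending protein (-0.34 ± 0.04, limma adjusted p = 6.16e-12), Plscr1 (-0.41) and Galnt12, of mucin-type glycosylation (-0.93), with the tetraspanin Cd9 (-0.84) and the adhesion molecule Cadm1 (-1.26) close behind. The other tested Bin3 probe did not pass the test. For Cd9, values were present for 47 lipogenic-high and 42 lipogenic-low mice.

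Genes of cell division followed the macrophage list, with 14 of 17 lower and 0 higher. Birc5 (-0.60), Tk1 (-0.60) and the replication clamp Pcna (-0.50) had the largest differences. Pcna ran from -1.59 through -0.43 to 0.53 in lipogenic-high mice and from -0.88 through 0.10 to 1.46 in lipogenic-low mice, and 44 lipogenic-high mice lay below the low median. Of 7 genes of MHC class 2 antigen display, 5 were lower, with H2-Aa at -0.58 ± 0.09 (limma adjusted p = 3.45e-07).

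Lymphocyte lists moved little. Of 15 T cell genes 0 passed the limma test (2 at an unadjusted p under 0.05), with a median of -0.13, and of 9 B cell genes Cd22 alone was lower (-1.17). Of 15 interferon-response genes Mx1 was higher (0.70 ± 0.09) and 4 lower, and Saa1, Saa2 and Saa3 of the acute phase list (-0.42, -0.37 and -0.44) did not pass the test. Of the 13 measured acute phase genes 2 were higher, Orm1 (0.51) and Steap4 (0.28), and 2 lower, Lcn2 (-0.32) and Socs3 (-0.18). Matrix genes went both ways: 8 of 23 were lower, including Timp1 (-0.72) and the stromelysin Mmp3 (-0.77), and 3 higher, namely Col5a3 (0.46), Col1a2 (0.40) and Col15a1 (0.32). Endothelial genes were higher in 9 of 15, led by Nos3 (0.49), Kdr (0.46) and Gpihbp1 (0.37), the capillary anchor of lipoprotein lipase.

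**Figure D3:**
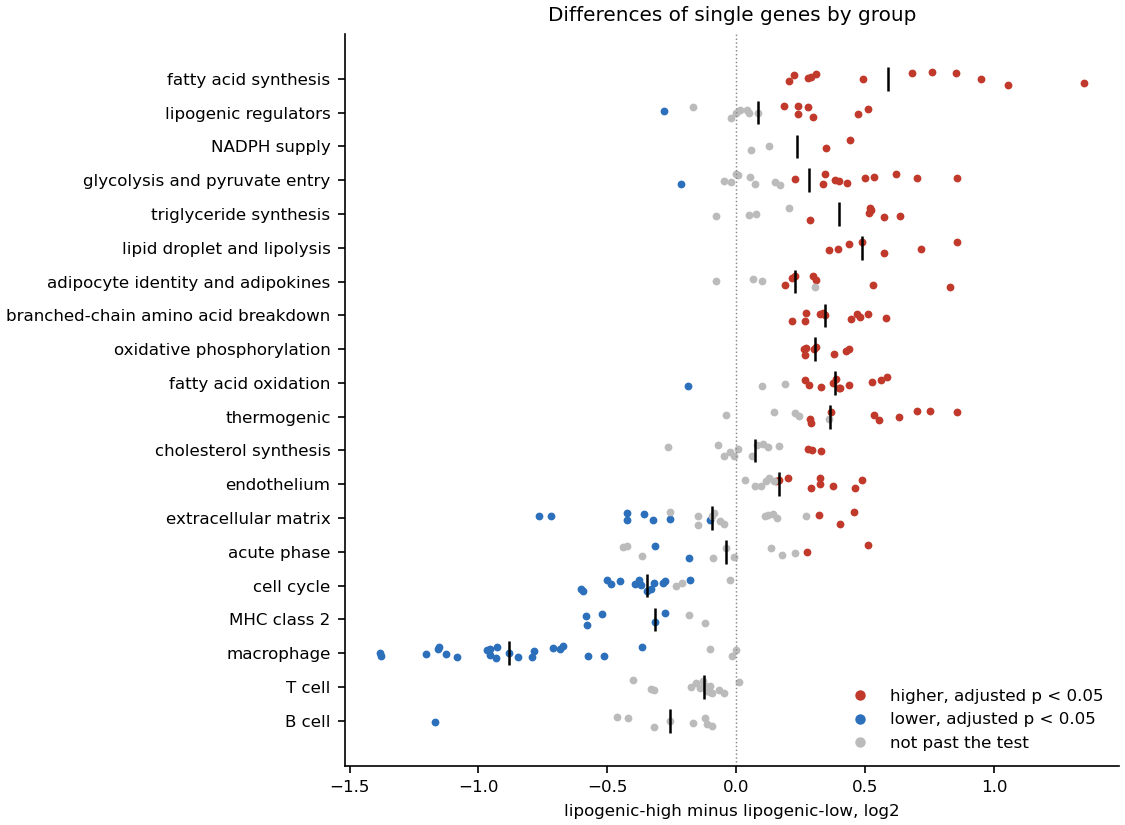
Differences of single genes, lipogenic-high minus lipogenic-low mice on the log2 scale (horizontal axis), by gene group (rows), with a line at each group's median and colours for genes past adjusted p 0.05. The fatty acid synthesis row lies wholly to the right, with a median of 0.59, and the macrophage row has a median of -0.88.

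Transcripts of neighbouring tissues were set beside these results. Epididymis, exocrine pancreas and lymph node stroma genes had 0 of 14, 0 of 7 and 0 of 6 past the limma test, and 0, 0 and 1 at an unadjusted p under 0.05. Their median differences were -0.03, 0.15 and -0.20. The mean level of the epididymis list ran from -4.55 through -4.13 to -2.71 in lipogenic-high mice. In lipogenic-low mice it ran from -4.78 through -4.09 to -3.175. Far below the pool in both groups, that list could hardly show a difference between them. The mean level of the pancreas list ran from -5.22 to 3.68 in lipogenic-high and from -5.38 to 3.01 in lipogenic-low mice. Skeletal muscle had 1 of 11 higher, Mb, epithelium 1 of 14 lower, St14, mammary gland 1 of 10 lower, Mfge8, and erythrocytes 1 of 7 lower, Rhd. The mean level of the muscle list ran from -0.96 to 3.45 in lipogenic-high and from -1.06 to 2.51 in lipogenic-low mice, and that of the epithelium list from -2.83 to 0.50 and from -2.68 to 1.39. Of stress chaperone genes 1 of 10 was higher, Hspb1, and 2 were lower, Ddit3 and Atf4. Without the 7 lipogenic-high and 6 lipogenic-low arrays that stood out for pancreas, muscle, epithelium, B cell or mammary transcripts, 2128 probes were higher and 1971 lower.

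The mean z of the macrophage list, called the macrophage score, moved with the lipogenic score. It ran from -2.01 through -0.52 to 0.66 in lipogenic-high mice and from -1.68 through 0.51 to 1.76 in lipogenic-low mice. Of the lipogenic-high mice 1 lay above the low median, and of the lipogenic-low mice 6 lay below the high median. The comparison was therefore repeated with this score as a covariate, which left 571 genes higher (4.96%) and 407 lower (3.54%). Of the 12 fatty acid synthesis genes 7 were still higher, with a median of 0.59 again, and Acly (1.01), Thrsp (1.10) and Elovl6 (1.09) had adjusted p-values of 1.53e-11, 5.55e-08 and 4.50e-06 by limma. Acacb, Mcat, Elovl3, Fads1 and Fads2 did not pass.

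Calls were lost in other lists too. Of the 11 branched-chain amino acid genes 4 were still higher, of the 9 thermogenic and 9 endothelial genes 2 each, of the 14 cell cycle genes 0 were still lower, and of the 5 MHC class 2 genes 0. At an unadjusted p under 0.05, 2 of the 17 measured cell cycle and 2 of the 7 measured MHC class 2 genes passed. Epithelial markers gained calls, with 7 of 14 lower in this fit against 1 without the covariate. Slc2a4 was 0.40 (limma adjusted p = 0.00197) and Mlxipl 0.26 (limma adjusted p = 0.0310), while Srebf1 (0.23, limma adjusted p = 0.0819), Cyp2e1 (0.56, limma adjusted p = 0.118) and Pck1 (0.07, limma adjusted p = 0.823) did not pass. Oxidative phosphorylation kept 5 of 8, triglyceride synthesis 5 of 6 and lipid droplet genes 5 of 7. Itgad (-0.30, limma adjusted p = 0.455) and Gdf3 (-0.06, limma adjusted p = 0.835), the largest decreases by size, did not pass. The decreases that were clearest by moderated t did pass, namely Bin3 (-0.18), Plscr1 (-0.37), Galnt12 (-0.55), Cd9 (-0.38) and Cadm1 (-0.42). The covariate is itself made of measured genes from the same arrays, and the macrophage genes in it cannot be read from this fit.

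**Figure D4:**
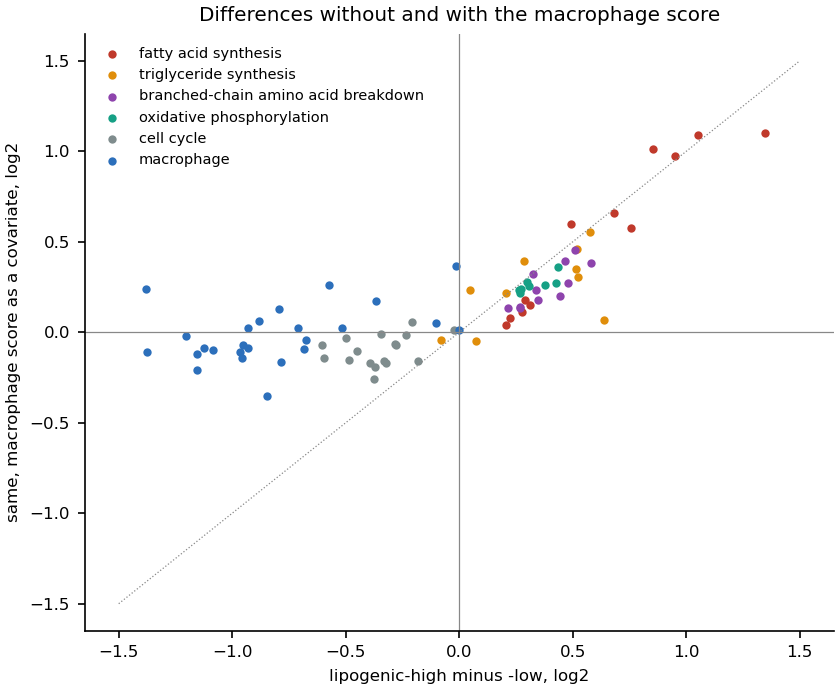
Lipogenic-high minus lipogenic-low differences on the log2 scale without (horizontal axis) and with (vertical axis) the macrophage score in the fit, 1 point per gene of 6 groups, dotted line at equality. Fatty acid synthesis genes such as Thrsp (1.35 and 1.10) and Acly (0.85 and 1.01) stay near the line, Acacb (0.31 and 0.15) and Fads1 (0.21 and 0.04) fall below it, and cell cycle genes such as Pcna (-0.50 and -0.03) drop to near 0.

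The same split was made among 105 of the 153 mice with high Eif2s3y, leaving out 48 whose arrays carry epididymis transcripts, giving 35 lipogenic-high and 35 lipogenic-low mice. There 1913 of 11499 genes were higher (16.6%) and 1574 lower (13.7%). The 2 sets of mice share no animal, only the pool. Of 1339 genes higher in Eif2s3y-low mice, 1003 were also higher in Eif2s3y-high mice, which is 74.9% of the one list and 52.4% of the other, and 3 were lower. Of 1133 lower genes 890 were also lower, 78.6% and 56.5%, and 6 were higher. Fatty acid synthesis had 12 of 12 higher in Eif2s3y-low and 9 of 12 in Eif2s3y-high mice, and macrophage genes 22 of 25 lower in Eif2s3y-low and 22 of 24 in Eif2s3y-high mice. Oxidative phosphorylation had 8 of 8 higher in Eif2s3y-low and 4 of 8 in Eif2s3y-high mice. Thermogenic genes had 9 of 14 higher in Eif2s3y-low mice, and 3 of 14 higher and 2 lower in Eif2s3y-high mice. In Eif2s3y-high mice 10 of 14 fatty acid oxidation and 10 of 11 branched-chain amino acid genes were higher. Of the 12 fatty acid synthesis genes 0 passed limma's test of the difference between the sets, and 1 had an unadjusted p under 0.05. At that unadjusted limit 4 of 8 oxidative phosphorylation and 6 of 14 thermogenic genes passed.

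That test, Eif2s3y-low minus Eif2s3y-high in the lipogenic difference, passed for 174 of 11499 genes (1.51%), with 81 more positive (0.704%) and 93 more negative (0.809%). On probes the counts were 125 and 180, and with the arrays that carry epididymis transcripts kept they were 1507 and 2433. With the score as a continuous measure they were 263 and 274. Slc2a5 differed by 1.52 ± 0.21 in Eif2s3y-low and 0.12 ± 0.29 in Eif2s3y-high mice (interaction 1.40 ± 0.38, limma adjusted p = 0.0312). In Eif2s3y-high mice its medians were -3.47 in lipogenic-high and -3.35 in lipogenic-low mice. Both lay below the lipogenic-low median of Eif2s3y-low mice (-2.91), and whether so low a level limits the difference was not tested. Lep was -0.08 ± 0.09 in Eif2s3y-low and 0.47 ± 0.10 in Eif2s3y-high mice (interaction -0.55 ± 0.14, limma adjusted p = 0.0133). Mest, an imprinted gene that rises in expanding fat, was -0.14 ± 0.14 and 0.85 ± 0.14 (interaction -0.99 ± 0.19, limma adjusted p = 0.000471).

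By list, the test passed for 3 of 7 MHC class 2 genes, H2-DMb2 (-0.52), H2-DMa (-0.35) and Ciita (-0.44), for 3 of 7 adipose expansion genes, for 1 of 8 oxidative phosphorylation genes, Ndufs1 (0.30), for 1 of 20 glycolysis and pyruvate genes, Pdha1 (0.34), and for 0 of 14 fatty acid oxidation and 0 of 11 branched-chain amino acid genes (1 and 0 at an unadjusted p under 0.05). Of the 8 genes of smallest p, 7 were lower in lipogenic-high Eif2s3y-high mice. Of these 7, Serpinb9b, Akr1b8 and Mcpt4 were also lower in Eif2s3y-low mice, by less, while Tph1, Tpsb2, Tpsab1 and Blvrb did not pass the test there. The eighth, Daxx, was lower in Eif2s3y-low and higher in Eif2s3y-high mice. Tph1, the enzyme of peripheral serotonin synthesis, was -0.07 ± 0.06 in Eif2s3y-low and -1.31 ± 0.14 in Eif2s3y-high mice (interaction 1.25 ± 0.19, limma adjusted p = 3.92e-06). Its medians in lipogenic-high and lipogenic-low mice were -0.58 and -0.57 in Eif2s3y-low mice, and -0.55 and 0.62 in Eif2s3y-high mice. The mast cell proteases Tpsb2, Tpsab1 and Mcpt4 had interactions of 0.98, 1.29 and 1.05. Their medians in lipogenic-low mice were 0.63, 0.60 and 0.73 in Eif2s3y-high mice, and -0.31, -0.71 and -0.30 in Eif2s3y-low mice. In lipogenic-high mice they were -0.23, -0.55 and -0.66 in Eif2s3y-high mice, and -0.33, -0.73 and -0.48 in Eif2s3y-low mice.

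**Figure D5:**
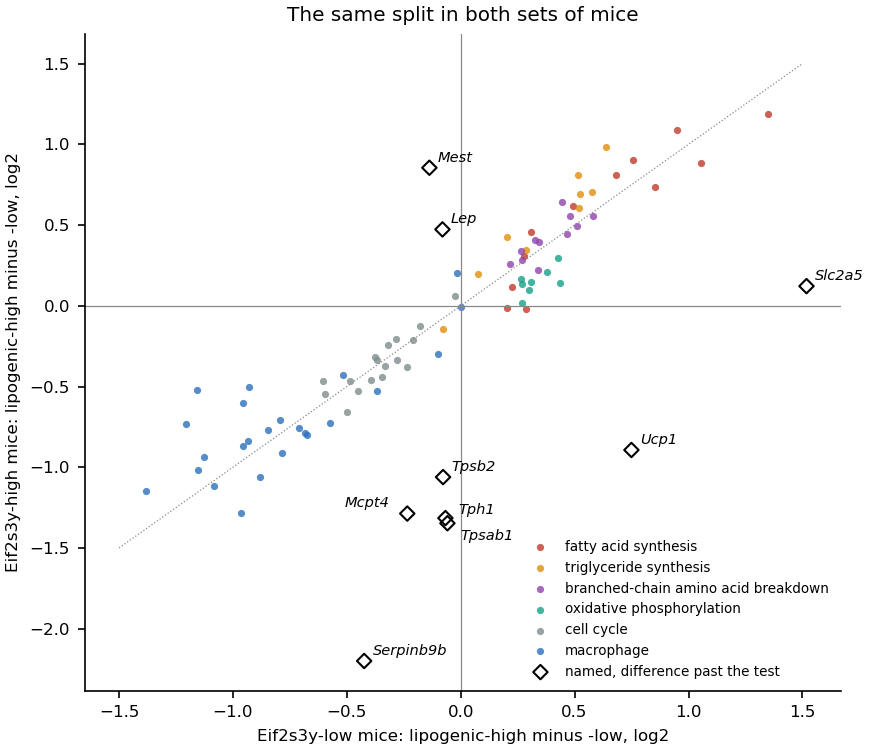
Lipogenic-high minus lipogenic-low differences on the log2 scale in Eif2s3y-low mice (horizontal axis) and Eif2s3y-high mice (vertical axis), 1 point per gene of 6 groups, with diamonds for named genes whose difference between the sets passed the test and a dotted line at equality. The mast cell genes Tph1 (-0.07 and -1.31), Tpsb2, Tpsab1 and Mcpt4 lie far below the line, and Slc2a5 (1.52 and 0.12) to its right.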

How the data were processed

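RNA from mouse adipose tissue carried Cy3 and a pool of RNA from all mice carried Cy5, per the labels. The deposited log10 ratios cover 23387 probes in 295 arrays; the sources used here do not give how the authors corrected and normalized them. The base and the direction are not stated. The limits of -2 and 2 and the Y-linked genes were set against each base: Eif2s3y had a median of 0.3795 and Kdm5d of 0.3896 in Eif2s3y-high mice, against 0.285 for log10, 0.947 for log2 and 0.657 for natural log if 153 of 295 mice carry the gene, so log10 was used, read as mouse over pool. Fold sizes, log2 values and the counts past a fold size rest on that reading, while p-values and the counts of genes or probes past the test do not. The series text gives 295 mice and the sample text 330. The number of 1 mouse differs between labels, and that of the title, 399, was used.

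Values were multiplied by 3.32 to log2. Probes measured on at least 90% of the 142 arrays entered, which left out 374 and the 4 probes of Fasn and Acaca. Missing values were left missing in the fits. Fits used limma 3.58.1 in R 4.3.3 (lmFit, eBayes) with Benjamini-Hochberg adjustment over all 23009 probes. For each gene the most variable probe with a single symbol was taken, which gave 11511 genes, 1274 of them with several probes; in 4 genes probes passed the test in opposite directions. Symbols came from the platform annotation (13644 probes with 1, 48 with several, 9695 with none), updated through Entrez to RefSeq GRCm38.p6 for 12652. Of the 3 arrays with no Acaca value, scored on Fasn alone, 0 were lipogenic-high and 1 lipogenic-low. The difference between mouse sets is the contrast of 4 groups in 1 fit. Array properties were compared by two-sided permutation tests with 100000 resamples. Of 541 genes in 32 lists, 375 were measured. The mice, the score and the lists were chosen with earlier results of these data known. Named genes were the 12 largest by moderated t and the 10 largest by size in each direction, up to 5 of smallest p in each list, the fatty acid synthesis genes, Mlxipl, Srebf1, Slc2a4, Lep, Adipoq and Apoe, and the 8 of smallest p between sets; other list members are named to account for their list, and Ucp1 between sets was chosen after its values were seen. Over pairs of the 142 arrays, 0 of 10011 had r under -0.3 (lowest -0.13, median 0.59). Nothing says that mice are not separate animals, and each had 1 array, so the spread includes array error. Arrays give no read depth, and their number limits the precision. Tested on simulated data for this comparison on 23009 probes, 76 of 100 probes changed by 0.3 and 97 of 100 changed by 0.6 (log2) were recovered, with 6 false calls.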

Additional observations from a re-analysis of the deposited data

Results flagged for a closer look

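The lipogenic difference (lipogenic-high minus lipogenic-low, log2) was compared between Eif2s3y-low and Eif2s3y-high mice by the interaction test of limma. Among the named genes and all measured list members, 25 passed at adjusted p under 0.05, against 174 of all 11499 genes (1.51%). Of the 25, 8 were named for having the smallest p in this same test, so their passing is no separate result. Values here are Eif2s3y-low minus Eif2s3y-high. The lipogenic difference was more positive in Eif2s3y-low mice for Slc2a5 (1.40), Idh3b (0.27) and Gfm1 (0.14). The same held for Ppargc1b (0.47) and Ucp1 of 14 thermogenic genes, Pdha1 (0.34) of 20 glycolysis and pyruvate genes, and Ndufs1 (0.30) of 8 oxidative phosphorylation genes. Ucp1 had 0.75 in Eif2s3y-low and -0.89 in Eif2s3y-high mice (interaction 1.64 ± 0.43, adjusted p = 0.0241), past the test in opposite directions. It was also more positive for the mast cell genes Tpsab1 (1.29), Tph1 (1.25), Mcpt4 (1.05) and Tpsb2 (0.98).

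Of 7 adipose expansion genes it was more negative in Eif2s3y-low mice for Mest (-0.99) and Npr3 (-0.47) and more positive for Kcna1 (0.57), and of 11 adipocyte genes it was more negative for Lep (-0.55). Of 7 MHC class 2 genes it was more negative for H2-DMb2 (-0.52), Ciita (-0.44) and H2-DMa (-0.35), and of 13 acute phase genes for Saa3 (-0.94). Of 23 matrix genes, Ccn2 had 0.90 and Thbs1 -0.64. Serpinb9b had the largest value (1.78), with -0.42 in Eif2s3y-low and -2.20 in Eif2s3y-high mice. Akr1b8 had 0.94, Blvrb 0.43 and Daxx -0.48, the last with -0.15 in Eif2s3y-low and 0.33 in Eif2s3y-high mice, both past the test.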

How the results depend on the processing

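No paired analysis was possible because the labels put all mice in 1 group and give no pairs. As reported, 2483 probes were higher and 2171 lower in lipogenic-high mice. Among probes with SD above the median, 1372 of 11504 were higher and 1411 lower, fewer probes being tested. Within mouse numbers 2 to 125, 126 to 247 and 248 to 399, 146, 777 and 882 probes were higher and 65, 396 and 1161 lower. The first of these ranges held 18 lipogenic-high and 15 lipogenic-low mice, and the last held 15 and 18. Why the counts of these ranges differ was not tested. With the macrophage score as a covariate, 1199 were higher and 750 lower. With the other 2 Acaca probes replacing the scored one, chosen after the data were seen, the counts were 6759 and 6784, and the cause was not tested. Without the lowest-score mouse, 2399 and 2120. The other settings gave 2097 to 2741 higher and 1657 to 2783 lower, the last of each with Acaca alone.

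Signs turned with the covariate for Mmp12 (0.24), whose own values are part of the macrophage score so that it cannot be read there, and for Foxo1 (-0.0151), Kcna1 (-0.0607), Tph2 (0.61, limma adjusted p = 0.0186), Mmp3 (0.0122), Serpinb9b (0.0812) and Akr1b8 (0.17). With the other Acaca probes they turned for Tkt (-0.0176), Pparg (-0.0091), Vldlr (-0.01), Mmut (-0.0324), Steap4 (-0.0928), Ermap (0.28), Atf4 (0.0032) and Daxx (0.0036). Of 143 named genes past the test, 78 kept their call with the covariate, 118 with the other Acaca probes, 128 with Fasn alone and 42, 78 and 108 within the ranges of mouse number. In each of the other settings 122 to 143 did. The 122 belongs to probes with no gap and 130 to probes with SD above the median. In both, 0 of the tested calls were lost, and the remaining named genes were not tested. Between mouse sets, the 125 more positive and 180 more negative probes became 1507 and 2433 with epididymis arrays kept and 263 and 274 with a continuous score; the cause was not tested. The number of arrays, not a read depth, limits what could be detected.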
